A study of Mus musculus with 20 samples.

Results

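The 9 genes described here encode ligands of the tumour necrosis factor (TNF) superfamily: Ltb, Lta, Tnf, Tnfsf14, Fasl, Tnfsf10, Tnfsf8, Cd40lg and Tnfsf11. They were chosen by symbol as a gene family, with earlier results of these data known. All 9 had a row in each of the 4 expression tables (12975 genes in the RFP table, 13766 in the Bcl6 table, 13624 in the Prdm1 table and 25036 in the Tcf7 table) and in both libraries titled LI. Bulk RNA-seq was performed on sorted mouse intraepithelial lymphocytes (IELs) of the CD8αα+ αβ type, T cells that live within the gut lining and carry a CD8α homodimer. In the RFP experiment, RFP+CD160+ cells (n = 3) were sorted beside RFP-CD160- cells (n = 3) from the small intestine of Bcl6-RFP/RFP mice, which carry a red fluorescent reporter of the transcription factor BCL6, so RFP and CD160 defined the groups and the ligands did not. In the other 3 experiments total CD8αα+ αβ IELs came from the small intestine of Bcl6fl/flCd8cre, Prdm1fl/flCd8cre or Tcf7fl/flCd8cre mice (n = 2 each) and of Bcl6fl/fl, Prdm1fl/fl or Tcf7fl/fl littermates without Cd8cre (n = 2 each). The floxed genes encode 3 transcription factors of T cell memory and effector states, BCL6, BLIMP1 from Prdm1 and TCF1 from Tcf7. All mice were at steady state, all 3 controls of the knockouts carry the floxed alleles, and an effect of Cd8cre itself cannot be told apart from loss of the floxed gene. The LI libraries (2, Bcl6-RFP/RFP, tissue given as small intestine) are placed in no group by their labels, so each of their values is given alone. No label gives an age, or says that replicates came from separate mice, and p-values then measure only the spread between these libraries, which may be technical.

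Most TNF superfamily ligands are type II membrane proteins. The ligands act as trimers on receptors of neighbouring cells, and several are cut from the surface into soluble form. Receptors with a death domain, such as FAS and TNFR1, can trigger apoptosis, while TNFR2, the lymphotoxin beta receptor and others recruit TRAF adaptors and activate NF-κB. In the gut, lymphotoxin made by lymphoid cells maintains lymphoid tissue and epithelial defence, LIGHT (Tnfsf14) binds HVEM and the lymphotoxin beta receptor, and FAS ligand (Fasl) and TRAIL (Tnfsf10) are killing molecules of cytotoxic lymphocytes.

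By position (GRCm38, GENCODE vM21), 3 of the genes are neighbours on chromosome 17: Ltb (35194439 to 35196320, plus strand), Tnf (35199381 to 35202007, minus strand) and Lta (35203165 to 35205351, minus strand). Tnfsf14 lies elsewhere on chromosome 17 (57189492 to 57194177, minus strand), Fasl on chromosome 1 (161780689 to 161788495, minus strand) and Tnfsf10 on chromosome 3 (27317028 to 27342427, plus strand). Tnfsf8 lies on chromosome 4 (63831308 to 63861347, minus strand), Cd40lg on chromosome X (57212143 to 57224042, plus strand) and Tnfsf11 on chromosome 14 (78277445 to 78308043, minus strand). All values below are of whole genes. The stretches before the start site of 4 members follow (RefSeq, GRCm38.p6, 5′ to 3′ on the gene's own strand), 3 of them because they hold letters of a factor that the experiments perturb or the pathway uses, and Fasl because its transcript moved opposite to Ltb. Capitals mark the NF-κB match in Ltb, the BCL6 matches in Lta and the AP-1 match in Tnfsf14, and Fasl has no capitals.
Ltb, chr17:35194257-35194438 (+ strand): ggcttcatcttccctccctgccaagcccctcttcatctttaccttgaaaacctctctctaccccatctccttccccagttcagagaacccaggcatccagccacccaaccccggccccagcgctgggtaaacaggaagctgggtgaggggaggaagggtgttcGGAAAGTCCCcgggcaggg
Lta, chr17:35205352-35205601 (- strand): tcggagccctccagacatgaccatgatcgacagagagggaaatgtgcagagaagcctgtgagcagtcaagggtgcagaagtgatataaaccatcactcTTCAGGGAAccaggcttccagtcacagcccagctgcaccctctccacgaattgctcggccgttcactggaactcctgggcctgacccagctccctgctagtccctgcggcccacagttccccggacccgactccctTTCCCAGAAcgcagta
Tnfsf14, chr17:57194182-57194431 (- strand): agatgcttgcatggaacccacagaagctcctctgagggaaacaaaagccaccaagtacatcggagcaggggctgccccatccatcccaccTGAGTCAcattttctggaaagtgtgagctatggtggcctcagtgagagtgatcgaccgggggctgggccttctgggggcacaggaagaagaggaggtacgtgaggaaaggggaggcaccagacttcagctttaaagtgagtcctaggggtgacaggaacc
Fasl, chr1:161788496-161788745 (- strand): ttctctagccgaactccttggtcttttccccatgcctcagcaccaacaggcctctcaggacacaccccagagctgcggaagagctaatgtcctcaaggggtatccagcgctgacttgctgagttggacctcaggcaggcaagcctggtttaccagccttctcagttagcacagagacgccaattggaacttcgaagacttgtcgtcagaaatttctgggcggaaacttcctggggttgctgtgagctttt

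In windows of 250 bases before the start site, on both strands, 8 members had a RefSeq window and 6 motifs were searched: TTCCNNGAA for BCL6, CTTTGA for TCF, AAGNGAAAG for BLIMP1, TGANTCA for AP-1, GGAAA for NFAT, and the NF-κB motif by name. Lta alone had the BCL6 letters, at -152 to -144 and at -16 to -8 from the start site, and 4.06% of all 32851 windows hold them. Ltb alone had an NF-κB match, at -87 to -78 and overlapping GGAAA, against 3.9% of all windows. Positions count from the RefSeq start site, which for Ltb lies 68 bases inside the GENCODE gene, and those 68 bases are not printed. Tnfsf14 alone had the AP-1 letters, at -160 to -154, against 6.75% of windows. All 8 held GGAAA, as did 55.6% of all windows, and none held the TCF letters (13.8% of windows) or the BLIMP1 letters (2.13%). A match describes letters only and shows neither a binding site nor a cause.

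The recovered depth of the libraries was 14.54 to 17.37 M reads in the RFP experiment, 22.13 to 23.0 in the Bcl6, 30.14 to 38.39 in the Prdm1 and 40.98 to 48.21 in the Tcf7 experiment, and 30.03 and 22.53 in the LI libraries. The labelled cell type was checked with Cd3e, Cd3g, Cd8a and Itgae, which reached the filter in every group. Trac, Trbc1 and Trbc2 were not analysed here, so the αβ part of the label was not checked. Of a γδ T cell list of 6 genes only Sox13 was analysed, below the filter in every group. It was 35.3 to 38.1 in signal in the Prdm1 knockout against 6.9 to 14.5 in littermates, and overlapped between the groups of the RFP, Bcl6 and Tcf7 experiments. Cd4 and Cd8b1, which CD8αα+ αβ IELs lack, summed to 0.777 to 1.31 FPKM in the RFP experiment, with no order between the groups. In the knockouts they summed to more than in littermates in the Bcl6 (2.6 to 3.58 against 1.61 to 2.34 FPKM) and Tcf7 experiments (313 to 358 against 147 to 270 in signal), and overlapped in the Prdm1 experiment (93.5 to 183 against 17.3 to 104). Neither gene was called where it passed the filter. Among the genes the knockouts target, Prdm1 was 361.7 to 639.9 in signal in the Prdm1 knockout against 5117 to 6092 in littermates, and Tcf7 was 7757 to 7993 against 15430 to 15606. Bcl6 was 0.55 and 0.638 FPKM in the Bcl6 knockout against 0.735 and 0.772 in littermates, all below the filter, so the Bcl6 labels are checked only weakly. In bulk libraries, fewer cells of a type and less RNA per cell cannot be told apart.

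Ligand transcripts of the 2 sorted populations differed mainly in which ligand was abundant. Ltb, the membrane-anchoring chain of lymphotoxin, was 7.18-fold higher in RFP+CD160+ than in RFP-CD160- cells, and Tnfsf14 was 4.42-fold and Cd40lg 3.95-fold higher. Fasl was 2.53-fold lower and Tnfsf10 was 1.24-fold lower in RFP+CD160+ cells. Of the 6 ligands that passed a filter of 1 FPKM in 3 libraries, 3 were called higher and 2 lower by limma (adjusted p under 0.05), where 16.4% of all 9717 genes tested were called higher and 21.6% lower. Cd40lg reached 1 FPKM in only 1 RFP-CD160- library and so passed the filter through the group where it is high, and this count supports nothing by itself. Rescaling the library totals moved the median of all genes by 0.14 on the log2 scale, and turned the 1591 higher and 2098 lower genes of the whole table into 3300 and 1171. Quantile normalization gave 2024 higher and 1744 lower.

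Ltb was 138, 145 and 136 FPKM in the 3 RFP+CD160+ libraries and 13.3, 21.2 and 24.0 in the 3 RFP-CD160- libraries. The groups were far apart, with the lowest RFP+CD160+ library above every RFP-CD160- library (log2 fold change 2.82, SE 0.18, limma adjusted p = 1.5e-05). The LI libraries held 141 and 135 FPKM of Ltb.

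Lta encodes the chain that is secreted as a homotrimer or joins LTβ on the surface, and Tnf encodes TNF itself. Lta was 1.79, 2.24 and 0.727 FPKM in RFP+CD160+ cells against 0.175, 0.13 and 0.167 in RFP-CD160- cells. Tnf was 1.96, 2.31 and 0.939 FPKM against 0.185, 0.439 and 0.457. In neither gene did the groups overlap, and in both the third RFP+CD160+ library was the lowest of its group. These values rest on few reads: 17 to 45 for Lta in RFP+CD160+ cells against 3 and 4, and 26 to 55 for Tnf against 5 to 13. Both genes fell below the filter and were not tested in the main analysis. Without the filter the log2 fold change was 1.11 for Lta (limma adjusted p = 0.0083) and 0.98 for Tnf (limma adjusted p = 0.011). In the LI libraries Lta was 5.3 and 6.16 FPKM and Tnf was 5 and 6.23.

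LIGHT (Tnfsf14), a costimulatory ligand, was 16.2, 18.4 and 10.4 FPKM in RFP+CD160+ cells and 1.93, 4.32 and 3.93 in RFP-CD160- cells. Every RFP+CD160+ library was above every RFP-CD160- library (log2 fold change 1.88, SE 0.26, limma adjusted p = 8.1e-04). CD40 ligand (Cd40lg), which helper T cells use to license B cells and dendritic cells, was 3.26, 5.94 and 4.02 FPKM against 0.775, 0.912 and 1.66. These groups did not overlap either (log2 fold change 1.35, SE 0.21, limma adjusted p = 0.0015). Of the CD4 and regulatory T cell marker list, Cd4 and Foxp3 were near 0 in every library of the experiment, with at most 0.0881 and 0.214 FPKM. The other gene of that list, Ctla4, was not low, at 15.5 to 27.8 FPKM in RFP+CD160+ and 26.6 to 53.5 in RFP-CD160- libraries, and was not called. The LI libraries held 8.84 and 8.63 FPKM of Tnfsf14 and 1.41 and 1.81 of Cd40lg.

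The 2 killing ligands ran the other way. FAS ligand transcripts (Fasl) were 45, 53.8 and 34.3 FPKM in RFP+CD160+ cells against 89.4, 114 and 133 in RFP-CD160- cells. The highest RFP+CD160+ library was below the lowest RFP-CD160- library (log2 fold change -1.32, SE 0.18, limma adjusted p = 8.2e-04). TRAIL transcripts (Tnfsf10) were 57.5, 63.2 and 57 FPKM against 67.2, 75.3 and 77.2, apart by a small margin (log2 fold change -0.30, SE 0.07, limma adjusted p = 0.010). That call was lost with library totals rescaled (adjusted p = 0.17) and with quantile normalization (adjusted p = 0.086). The LI libraries held 41.4 and 36 FPKM of Fasl and 41 and 37 of Tnfsf10.

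CD30 ligand (Tnfsf8) overlapped between the groups, with 27.7, 31.2 and 22.7 FPKM in RFP+CD160+ cells and 13.9, 23.8 and 24.7 in RFP-CD160- cells (log2 fold change 0.40, SE 0.20, limma adjusted p = 0.16). RANK ligand (Tnfsf11), known for osteoclast and lymph node development, was 0.508, 0.308 and 0.318 FPKM against 0, 0.0268 and 0.0258. It was covered by 17, 10 and 12 reads against 0, 1 and 1, a ratio of 21.2 with an exact 95% counting interval of 5.5 to 182. A count of 0 in the first RFP-CD160- library allows up to 0.0812 FPKM (3 reads), and intervals and limits of this kind cover counting error only. Tnfsf11 was not tested in the main analysis, and without the filter its log2 fold change was 0.43 (limma adjusted p = 0.0027). A count test (edgeR) on reads recovered from the FPKM values, added after the data were seen, called Lta, Tnf and Tnfsf11 higher, with adjusted p of 0.0011, 0.0041 and 0.0014.

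**Figure D1:**
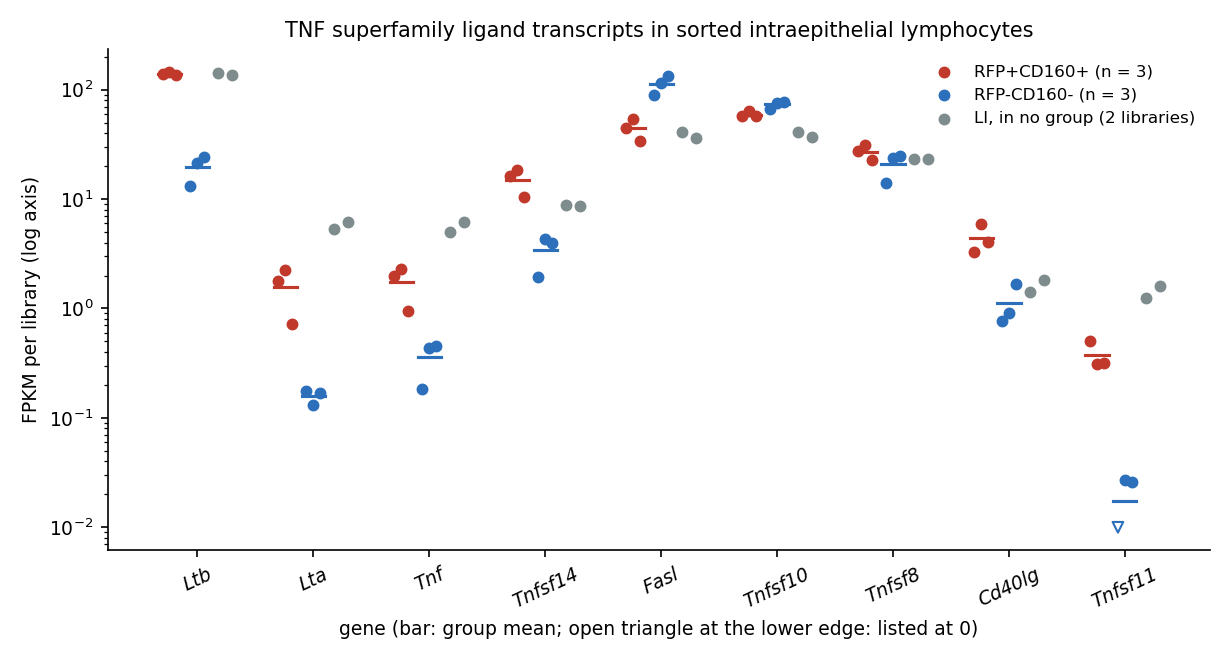
FPKM of the 9 ligands (log axis) in RFP+CD160+ libraries (red, n = 3), RFP-CD160- libraries (blue, n = 3) and the 2 LI libraries (grey), 1 point per library, with bars at the group means and an open triangle where a value is listed at 0. Ltb is at 136 to 145 FPKM in RFP+CD160+ libraries and 13.3 to 24.0 in RFP-CD160- libraries, and Fasl is the reverse, at 34.3 to 53.8 and 89.4 to 133.

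FPKM is per exon length, so levels can be ordered between genes within a library. In RFP+CD160+ cells the order was Ltb, Tnfsf10, Fasl, Tnfsf8, Tnfsf14, Cd40lg, Tnf, Lta and Tnfsf11, and of the neighbours in it only Tnf and Lta overlapped over libraries. In RFP-CD160- cells Fasl came first, then Tnfsf10, Tnfsf8 and Ltb, with Tnfsf8 and Ltb overlapping, and Tnfsf14, Cd40lg, Tnf, Lta and Tnfsf11 followed with no overlap. Ltb made up 45.1 to 51.1% of the summed level of the 9 ligands in RFP+CD160+ libraries and 7.1 to 9.05% in RFP-CD160- libraries. Fasl made up 12.9 to 16.7% and 47.4 to 50.2%. The 9 ligands together summed to 267 to 323 FPKM in RFP+CD160+ libraries and 187 to 266 in RFP-CD160- libraries.

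Markers of other cells that were called between these sorts were mostly lower in RFP+CD160+ cells. Of all genes tested, 16.4% were called higher and 21.6% lower, and the list counts below stand beside these shares. The myeloid list summed to 47.3 to 59.2 FPKM in RFP+CD160+ and 88.6 to 108 in RFP-CD160- libraries, and 4 of its 4 tested genes (Itgam, Cd68, Cst3 and Itgax) were lower, while Csf1r was at most 0.0347 FPKM in any library. The epithelial list (12 genes, 9 tested) summed to 112 to 132 FPKM and 109 to 220, with 1 gene higher and 2 lower. In the B and plasma cell list only Cd79b was tested, and it was lower. The innate lymphoid and mast cell list had 2 genes lower of 2 tested, and the stromal list 1 lower of 1. The markers of the labelled cells were lower too, 4 of 4, with a sum of 1299 to 1405 FPKM against 2043 to 2120. Immediate-early genes, which cells induce within minutes of stimulation or of handling, were higher in RFP+CD160+ cells for 7 of 8 (list added after the data were seen: Fos, Fosb, Jun, Junb, Egr1, Ier2, Dusp1 and Atf3), with a sum of 3422 to 3580 FPKM against 1882 to 2092. The part of any of these in the ligand differences was not tested.

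NF-κB genes that were called in this sort were all higher in RFP+CD160+ cells. Of 18 NF-κB subunits, kinases and feedback genes, 9 were higher and 0 were lower, beside 16.4% and 21.6% of all genes tested. The median log2 fold change of the 18 was 0.22, against -0.03 over all genes tested. With library totals rescaled 13 of the 18 were higher, while the higher genes of the whole table rose from 1591 to 3300. Nfkb1, the precursor of the p50 subunit, was 36.5 ± 2.05 FPKM (SD, n = 3) against 10.7 ± 0.312 (n = 3) (log2 fold change 1.67, limma adjusted p = 9.4e-07). Nfkbia, which encodes the inhibitor IκBα and is itself an NF-κB target, was 147 ± 30.1 against 65.3 ± 11.1 FPKM (limma adjusted p = 0.0011). Nfkbie (log2 fold change 0.63, adjusted p = 3.8e-04) and Map3k14, the kinase of the non-canonical pathway (0.37, adjusted p = 0.0025), were higher as well. Genes that control the decay and translation of ligand mRNA had 6 higher and 0 lower of 15, or 11 and 0 with library totals rescaled. They included Zfp36, whose product tristetraprolin destabilises Tnf mRNA, at 81.8 ± 4.26 against 35.8 ± 6.41 FPKM (log2 fold change 1.18, limma adjusted p = 1.8e-04). Zc3h12a (0.86, adjusted p = 5.2e-04), Zfp36l1 (0.64, adjusted p = 0.0060) and Tial1 (0.20, adjusted p = 0.0087) were higher too.

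Genes that shed or process the ligands were 5 lower and 0 higher of 7 in RFP+CD160+ cells, where 21.6% of all genes tested were called lower and 16.4% higher. With library totals rescaled only 1 of the 7 stayed called, and with quantile normalization 3. Furin, a proprotein convertase, was 52.1 ± 4.46 FPKM against 70.2 ± 4.17 (log2 fold change -0.43, limma adjusted p = 0.0027), and this call held in all 12 alternatives. Adam10 (-0.21, adjusted p = 0.022), the intramembrane protease Sppl2a (-0.21, adjusted p = 0.020) and the iRhom gene Rhbdf2 (-0.32, adjusted p = 0.029) did not hold with totals rescaled (adjusted p = 0.42, 0.39 and 0.15). Adaptors and death-domain genes were split, 7 higher and 7 lower of 21, or 9 and 3 with library totals rescaled. Traf1, an NF-κB-induced adaptor, was 20.2 ± 1.35 against 11.4 ± 1.48 FPKM (log2 fold change 0.78, limma adjusted p = 3.6e-04), and Tab1 was higher as well (0.51, adjusted p = 0.0030). Rbck1, part of the linear ubiquitin ligase complex (-0.46, adjusted p = 2.4e-04), and the necroptosis kinase Ripk3 (-0.39, adjusted p = 0.0044) were lower.

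Of 6 receptors tested, 1 was higher and 1 was lower, beside 16.4% and 21.6% of all genes tested. Tnfrsf10b, the receptor of TRAIL, was higher in RFP+CD160+ cells (4.77 ± 1.08 against 1.49 ± 0.437 FPKM, log2 fold change 1.21, limma adjusted p = 7.2e-04). Tnfrsf1a, which encodes TNFR1, was lower (43 ± 3.57 against 62.1 ± 4.34 FPKM, log2 fold change -0.52, limma adjusted p = 0.0010). The most abundant receptor was Tnfrsf1b, the gene of TNFR2, at 189.6 to 247.1 FPKM and 213.4 to 243.9, ranges that overlapped (limma adjusted p = 0.57). Tnfrsf14 (HVEM), the receptor of LIGHT, was 41.2 to 45.2 against 44.6 to 49.3 FPKM, and Fas was 2.4 to 3.33 against 2.56 to 3.38. Ltbr, the lymphotoxin beta receptor, was at 1.19 to 1.49 against 1.68 to 2.01 FPKM and was not called (limma adjusted p = 0.076). Cd40 and Tnfrsf11b, also on the list of 12, were not analysed here. Of 2 tested ligands outside the 9, Tnfsf9 (4-1BB ligand) was higher (2.42 ± 0.633 against 1.33 ± 0.327 FPKM, log2 fold change 0.55, limma adjusted p = 0.023), a call lost in 5 of 12 alternatives, among them without RFP+CD160+ replicate 2 (adjusted p = 0.063) and without RFP-CD160- replicates 1 (0.054) or 2 (0.074).

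In the Bcl6 knockout, Ltb was the only ligand called: 132 and 152 FPKM in littermates and 69.7 and 69.5 in the knockout, a 2.04-fold difference. Both knockout libraries were below both littermates (log2 fold change -1.01, SE 0.16, limma adjusted p = 0.042). The call is close to the threshold and was lost with no filter (adjusted p = 0.069), with quantile normalization (0.051), without littermate replicate 1 (0.18), without littermate replicate 2 (0.67) and with the count test on recovered reads (0.087), while the log2 fold change stayed between -1.12 and -0.91. Of 7 ligands tested, 0 were higher and 1 was lower, where 0.0313% of all 9573 genes tested were called higher and 0.387% lower. At an unadjusted p under 0.05, 4 of the 7 passed in limma and 3 of 9 in edgeR, which called none after adjustment. The share of all genes at that unadjusted level is not given here, so these counts support nothing by themselves. Tnf passed the filter only through the littermates.

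Tnf was 3.1 and 1.99 FPKM in Bcl6 littermates and 0.379 and 0.806 in the knockout. The groups did not overlap, at 72 to 117 against 14 to 30 reads (log2 fold change -1.15, SE 0.24, limma adjusted p = 0.13). With a library left out, the log2 fold change of Tnf ran from -1.38 to -0.92. Lta was 0.692 and 1.54 against 0.257 and 0.892 FPKM and was not tested, and these libraries overlapped. Tnfsf14 was 10.9 and 12.5 against 9.78 and 5.89 FPKM (log2 fold change -0.56, SE 0.23, limma adjusted p = 0.83). Fasl was 152 and 145 against 190 and 251 FPKM (log2 fold change 0.55, SE 0.18, limma adjusted p = 0.60). In both genes the groups were apart. With 2 libraries a group, being apart supports nothing by itself, and the share of all genes apart is not given here. With a library left out, the log2 fold change ran from -0.88 to -0.24 for Tnfsf14 and from 0.36 to 0.75 for Fasl.

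The remaining ligands overlapped between Bcl6 knockout and littermates. Tnfsf10 was 38.2 and 31 FPKM in littermates and 35.2 and 35.4 in the knockout, and Tnfsf8 was 23.9 and 21.3 against 21.9 and 22. Cd40lg was 3.65 and 2.49 against 2.7 and 4.48 FPKM, and Tnfsf11, not tested, was 0.233 and 0.283 against 0.0397 and 0.315. In littermates Fasl and Ltb shared the top of the order, with overlapping levels, while in the knockout Fasl stood above Ltb. Among the pathway lists in this comparison only Zfp36 was called, at 60.6 ± 14.2 against 150 ± 3.01 FPKM (n = 2 each, log2 fold change -1.31, limma adjusted p = 0.026), and it missed the threshold with no filter (0.055) and in edgeR (0.056). No gene of the NF-κB list (18 tested), the adaptors (20), the shedding genes (7) or the receptors (6) was called by limma or edgeR, with 6, 1, 0 and 1 at an unadjusted p under 0.05 in limma. Without the share of all genes at that level, these unadjusted counts are not read further. Immediate-early genes were lower in the knockout for 3 of 8, summing to 2944 to 3553 FPKM against 4558 to 4892. Of all genes tested, 0.0313% were called higher and 0.387% lower. Of 12 epithelial genes only Lyz1 was called, at 10.4 and 6.8 FPKM in the knockout against 44.9 and 51.7. The epithelial sums (236 to 269 against 269 to 301 FPKM) include Lyz1. Others, such as Krt18 (6.14 and 8.4 against 4.39 and 5.13 FPKM), ran the other way without a call. Cd4, which these cells lack, was 1.76 and 1.08 FPKM in the knockout against 0.0863 and 0.179 in littermates, apart but not called (limma adjusted p = 0.12). The part of these genes in the Ltb and Zfp36 differences was not tested.

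In the Prdm1 knockout 5 ligands were higher and 1 was lower, out of all 9 tested, where 4.29% of all 10969 genes tested were called higher and 2.54% lower. Lta, Tnf and Tnfsf11 passed the filter only through the knockout libraries, where they are high, so this count supports nothing by itself. Values of the Prdm1 and Tcf7 experiments are size-factor-scaled reads (signal), not scaled by gene length, and the filter was 50 in 2 libraries. All 3 genes of the chromosome 17 cluster rose: Ltb 2.02-fold, Lta 4.54-fold and Tnf 5.88-fold.

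Ltb was 1873 and 2846 in signal in littermates and 4726 and 4785 in the knockout (log2 fold change 1.04, SE 0.19, limma adjusted p = 0.024). Lta was 21.7 and 26.7 against 103 and 117 (log2 fold change 2.14, SE 0.36, limma adjusted p = 0.019). Tnf was 16.6 and 31.1 against 129 and 151 (log2 fold change 2.57, SE 0.41, limma adjusted p = 0.017). In all 3 genes both knockout libraries were above both littermates, with 21 and 31 reads of Lta and 16 and 36 of Tnf in littermates. The Lta call was lost with quantile normalization (adjusted p = 0.054) and without knockout replicate 2 (0.071).

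Tnfsf14 was 360 and 556 in littermates and 951 and 1113 in the Prdm1 knockout, a 2.25-fold difference with no overlap (log2 fold change 1.20, SE 0.22, limma adjusted p = 0.025). Tnfsf11 was 2.07 and 6.04 against 81.6 and 60.3, from 2 and 7 reads against 77 and 58, a 17.5-fold ratio of the means. On the log2 scale the difference was 3.94 (SE 0.67, limma adjusted p = 0.020), and the call was lost without knockout replicate 1 (0.092). Fasl was the ligand that fell, from 6579 and 5981 to 2996 and 3209, a 2.02-fold drop with no overlap (log2 fold change -1.02, SE 0.10, limma adjusted p = 0.0039).

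Tnfsf8 was 3155 and 4144 against 4903 and 5334, apart but not called (log2 fold change 0.50, SE 0.14, limma adjusted p = 0.10). With a library left out, its log2 fold change ran from 0.30 to 0.70. Tnfsf10 was 13907 and 16213 against 12374 and 13228 (log2 fold change -0.23, limma adjusted p = 0.34), and Cd40lg was 124 and 145 against 226 and 136, which overlapped (limma adjusted p = 0.52). Per exon length the order changed at the top: littermates had Fasl, Tnfsf10 and Ltb, and the knockout had Ltb, Tnfsf10 and Fasl, with no overlap between these neighbours in either group. The share of Ltb in the summed level per length of the 9 ligands was 14.7 and 19.6% in littermates and 32.7 and 33.9% in the knockout.

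Other genes of the pathway called in the Prdm1 knockout stand beside the share of all genes tested, 4.29% higher and 2.54% lower. Nfkb1 was the 1 of 18 NF-κB genes called, at 17804 ± 1109 against 8422 ± 1644 in signal (n = 2 each, log2 fold change 1.09, limma adjusted p = 0.011). Tnfrsf10b was the 1 of 7 receptors, at 702 ± 201 against 345 ± 38.1 (log2 fold change 1.00, limma adjusted p = 0.046), a call lost with quantile normalization (0.071) and without knockout replicate 1 (0.10). Tnfsf4, the gene of OX40 ligand and the 1 of 4 other ligands called, was 104 ± 10.5 against 16.6 ± 2.80 (log2 fold change 2.58, limma adjusted p = 0.015), and it too passed the filter only through the knockout. No adaptor (21 tested), shedding gene (7) or decay gene (15) was called by limma or edgeR, with 2, 1 and 3 at an unadjusted p under 0.05 in limma. Without the share of all genes at that level, these unadjusted counts are not read further. Epithelial markers were higher in the knockout for 8 of 12, summing to 20778 to 26647 against 16738 to 16824. Of 8 immediate-early genes, 1 was higher. Of 5 myeloid genes tested, Itgam and Itgax were lower, and the list summed to 7740 to 7853 against 12350 to 14603. Most of that sum was Itgax (5995 and 5809 against 11973 and 9598). Lyz2 ran the other way without a call (92.2 and 250 against 40.3 and 44), and Cd68 and Cst3 were not called. Cd4 was 48.7 and 66.5 in signal in the knockout against 6.21 and 8.63 in littermates, and it was below the filter. Without the filter it was higher (log2 fold change 2.80, limma adjusted p = 0.024), as in edgeR (adjusted p = 0.025). Their part in the ligand differences was not tested.

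In the Tcf7 knockout Ltb and Tnfsf14 fell and Fasl rose. Of 8 ligands tested, 1 was higher and 2 were lower, where 1.49% of all 15210 genes tested were called higher and 1.23% lower. Lta passed the filter only through the littermates. Ltb was 5574 and 4766 in signal in littermates and 3521 and 3117 in the knockout (1.56-fold lower, log2 fold change -0.64, SE 0.08, limma adjusted p = 3.7e-04). Tnfsf14 was 1031 and 1056 against 487 and 611 (1.9-fold lower, log2 fold change -0.93, SE 0.12, limma adjusted p = 5.3e-04). Fasl was 8840 and 8996 against 11034 and 10903 (1.23-fold higher, log2 fold change 0.30, SE 0.05, limma adjusted p = 0.0031). None of these 3 genes overlapped between the groups, and the Fasl call was lost without knockout replicate 1 (adjusted p = 0.057).

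Lta was 70.4 and 69.6 in Tcf7 littermates and 30.8 and 35 in the knockout. The libraries were apart, at 63 and 74 against 31 and 37 reads, but the gene was not called (log2 fold change -1.07, SE 0.38, limma adjusted p = 0.22). Tnf was 79 and 115 against 62.7 and 82.4 and overlapped (log2 fold change -0.40, limma adjusted p = 0.70). Tnfsf10 was 20628 and 21216 against 21833 and 22522 (log2 fold change 0.08, adjusted p = 0.51), and Tnfsf8 was 5447 and 5969 against 4975 and 5448 (-0.13, adjusted p = 0.43). Cd40lg was 69.5 and 47.5 against 54.7 and 42.6, and Tnfsf11, not tested, was 7.61 and 8.83 against 6.97 and 7.57. None of these 6 passed the test. Per exon length the order of the 5 most abundant ligands was Fasl, Tnfsf10, Ltb, Tnfsf8 and Tnfsf14 in both groups.

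Pathway genes called in the Tcf7 knockout were Tnfrsf14 (1 of 8 receptors tested), Traf1 (1 of 21 adaptors) and Bcl3 (1 of 18 NF-κB genes). Of all genes tested, 1.49% were called higher and 1.23% lower. Tnfrsf14 was 12111 ± 142 against 14065 ± 440 in signal (n = 2 each, log2 fold change -0.22, limma adjusted p = 0.030), lost without knockout replicate 1 (0.32) or 2 (0.20). Traf1 was lower (-0.31, limma adjusted p = 0.0079), lost without knockout replicate 1 (0.11). Bcl3, an atypical IκB protein, was higher (1825 ± 173 against 1156 ± 92.7, log2 fold change 0.66, limma adjusted p = 0.0010). Epithelial markers were higher in the knockout for 3 of 12 (32900 to 33431 against 27435 to 27651), as was 1 of 8 immediate-early genes. Itgam (1 of 5 myeloid genes tested) and Ctla4 (1 of 2 tested in the CD4 and regulatory T cell list) were higher too. Cd4 was 55.7 and 50.2 in signal in the knockout against 22.8 and 11 in littermates, apart but not called (limma adjusted p = 0.14). Their part in the ligand differences was not tested.

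**Figure D2:**
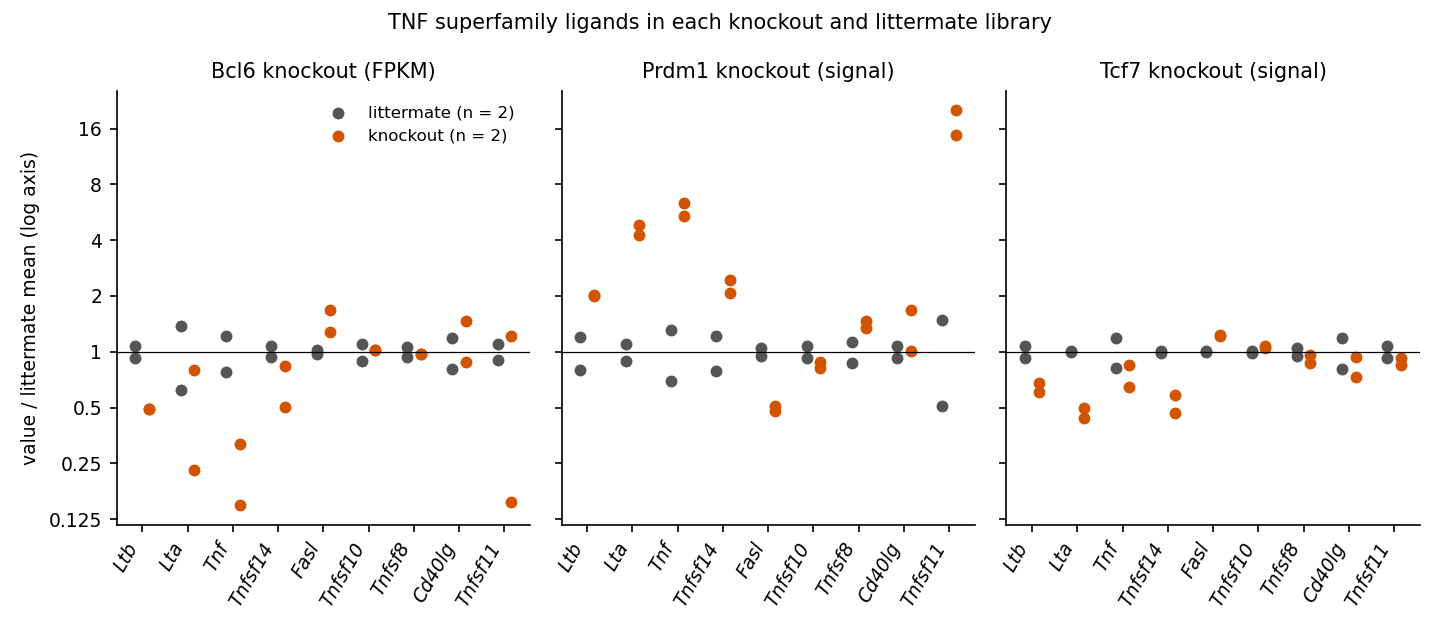
Each ligand's value divided by the mean of its littermates (log axis) in the Bcl6, Prdm1 and Tcf7 experiments, 1 point per library (littermates grey, knockouts orange, n = 2 each). In the Prdm1 panel both knockout points of Ltb, Lta, Tnf, Tnfsf14 and Tnfsf11 lie above both littermate points and those of Fasl lie below, while Ltb lies below in the Bcl6 and Tcf7 panels.

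The 4 comparisons share no libraries, and their differences from one another were not tested. Side by side, Ltb had log2 fold changes of 2.82 (RFP+CD160+ minus RFP-CD160-), -1.01 (Bcl6 knockout minus littermates), 1.04 (Prdm1) and -0.64 (Tcf7). Fasl had -1.32, 0.55, -1.02 and 0.30 in the same order, opposite in sign to Ltb each time, with the Bcl6 value not called. Tnfsf14 had 1.88, -0.56, 1.20 and -0.93, with the Bcl6 value not called. Prdm1, the gene of BLIMP1, was itself 25.9-fold lower in RFP+CD160+ cells, and Tcf7 was 47.4-fold and Bcl6 4.44-fold higher. In the Prdm1 knockout Tcf7 was 3.15-fold higher (limma adjusted p = 0.016). In the Tcf7 knockout Prdm1 was 1.16-fold higher (limma adjusted p = 0.045) and Bcl6 1.3-fold lower (limma adjusted p = 0.0065). Any link of these genes to the ligand differences was not tested.

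**Figure D3:**
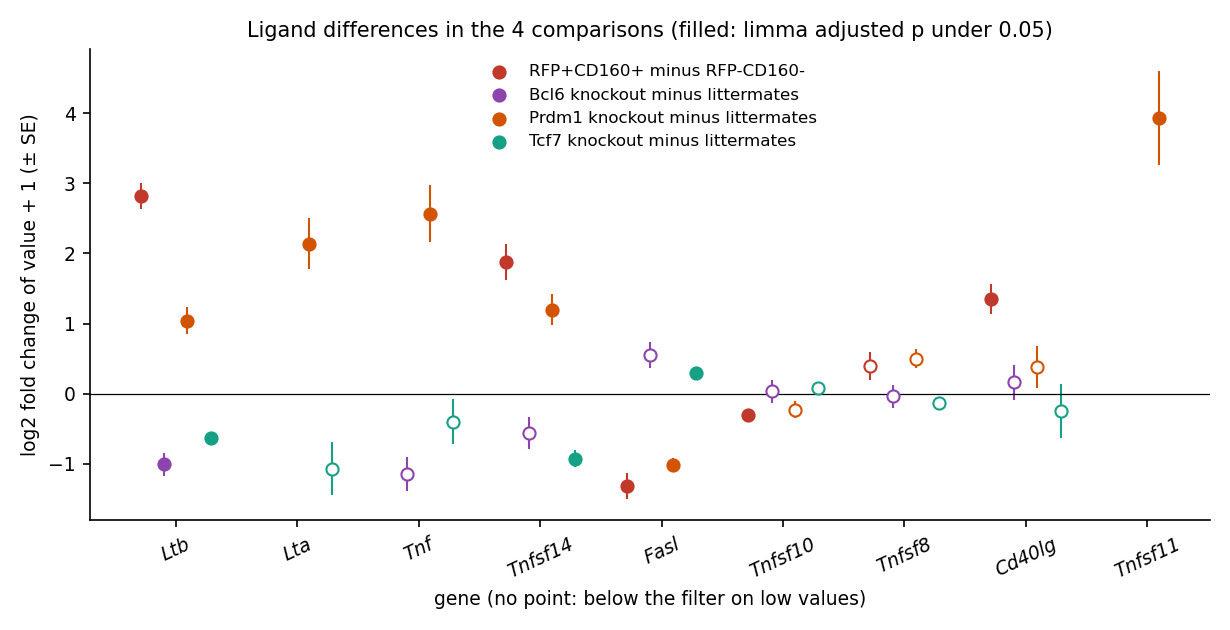
Log2 fold change of value + 1 (± SE) of each ligand in the 4 comparisons, filled where the limma adjusted p was under 0.05 and open where not; no point is drawn where a ligand was below the filter. Ltb is filled in all 4 comparisons, at 2.82, -1.01, 1.04 and -0.64, and Tnfsf8 is open in all 4.

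The ratio of Ltb to Fasl within a library, per exon length, does not depend on how libraries are scaled to each other. It joins 2 ligands already seen above to differ in opposite directions, so it restates those values and is no separate support. It was 3.07, 2.7 and 3.97 in RFP+CD160+ libraries and 0.148, 0.187 and 0.18 in RFP-CD160- libraries, so Ltb exceeded Fasl in all 3 of the first and in none of the second. In the Bcl6 experiment it was 0.866 and 1.05 in littermates and 0.366 and 0.277 in the knockout. In the Prdm1 experiment it was 0.364 and 0.608 in littermates and 2.02 and 1.91 in the knockout. The Prdm1 knockout was the only knockout with Ltb above Fasl in both libraries. In the Tcf7 experiment it was 0.806 and 0.677 against 0.408 and 0.365, and in the LI libraries 3.4 and 3.76. Knockout and littermate libraries did not overlap in any of the 3 experiments, and with 2 libraries a group the smallest two-sided p of an exact permutation test is 0.333.

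**Figure D4:**
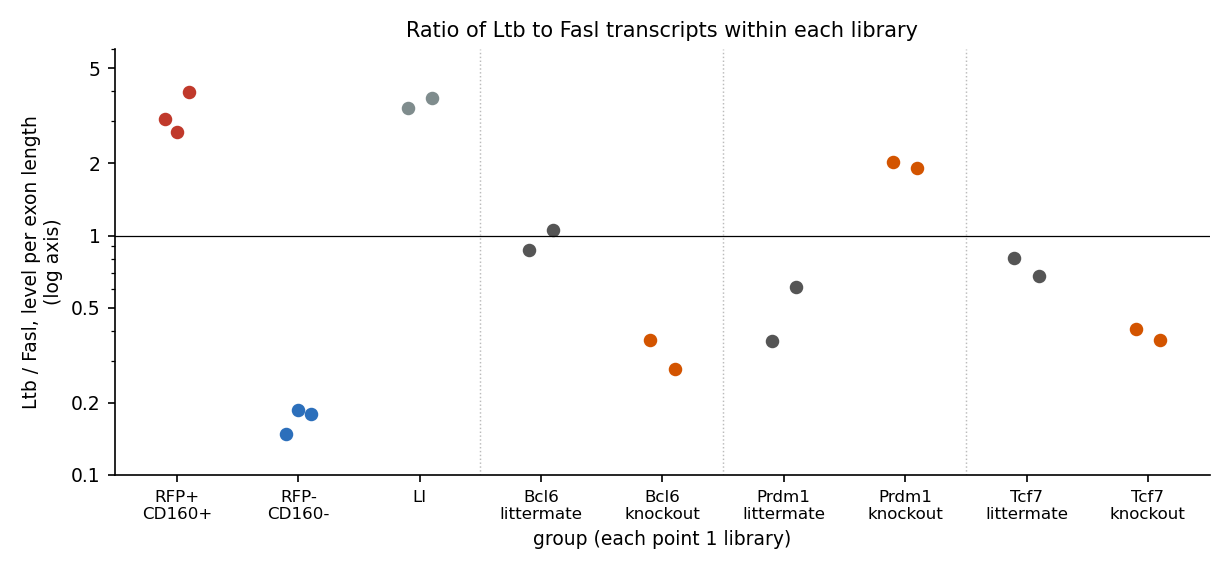
Ratio of Ltb to Fasl, each per exon length, within each of the 20 libraries (log axis, 1 point per library, line at 1). RFP+CD160+ (2.7 to 3.97) and Prdm1 knockout libraries (1.91 and 2.02) lie above 1 and RFP-CD160- libraries (0.148 to 0.187) below it.

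**Figure D5:**
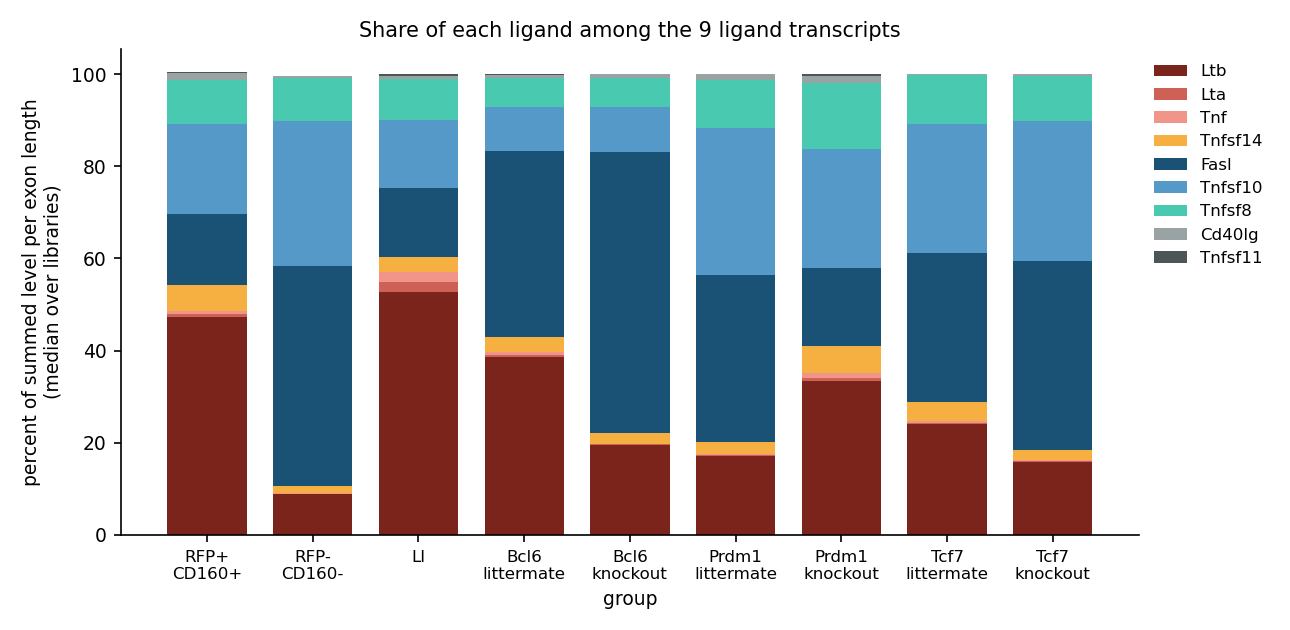
Share of each of the 9 ligands in their summed level per exon length, as the median over the libraries of each group, so that bars need not reach 100% exactly. Ltb is the largest share in RFP+CD160+ (47.3%), LI (52.7%) and Prdm1 knockout libraries (33.3%), and Fasl is the largest in RFP-CD160- libraries (47.8%) and in the Bcl6 (61%) and Tcf7 knockouts (40.9%). Fasl is also the largest in the littermates of the Bcl6 (40.5%, with Ltb at 38.7%), Prdm1 (36.3%) and Tcf7 experiments (32.4%).

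The genes next to the chromosome 17 cluster were called in 1 of the 4 comparisons at most. Nfkbil1, on the far side of Lta, was 13.2 ± 2.07 FPKM in RFP+CD160+ and 13.5 ± 0.415 in RFP-CD160- cells and was called in none of the 4 comparisons (limma adjusted p = 0.70, 0.98, 0.96 and 0.78 in the RFP, Bcl6, Prdm1 and Tcf7 experiments). Aif1, on the side of Ltb, was not called in any of the 4 either (adjusted p = 0.54, 0.98, 0.78 and 0.96). Lst1, between Aif1 and Ltb, was higher in RFP+CD160+ cells (6.94 ± 1.28 against 3.09 ± 0.452 FPKM, log2 fold change 0.95, limma adjusted p = 9.1e-04), was not called in the Bcl6 and Tcf7 experiments and was below the filter in the Prdm1 experiment.

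For 6 ligands that passed the filter in all 4 experiments, the genes with the most similar pattern were found by Pearson's r over the 18 grouped libraries, centred within each experiment, among 8907 genes. These r describe libraries that share their group differences and depth, and no p is given. Ltb was closest to Itgal, an integrin chain (r = 0.979), and Myc (0.978), and Fasl to Gsap (0.982) and Lrrc9 (0.976). Tnfsf14 was closest to Tmem63b (0.957) and Dkk3 (0.955). The closest genes of Tnfsf10 were Pdxdc1 (0.903) and M6pr (0.898), of Cd40lg Setd4 (0.897) and Klhl7 (0.896), and of Tnfsf8 Plscr4 and Per2 (both 0.885).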

How the data were processed

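Bulk RNA-seq values of 20 libraries were used as deposited. The authors' RFP, Bcl6 and LI values are FPKM, per the file headers. The Prdm1 and Tcf7 values carry the same name, but by their steps they are a deposited gene signal, reads divided by 1 size factor per library. Per the submitters' processing notes, mm10, RSEM, featureCounts (Subread), Bowtie2, DESeq2 and Trim Galore 0.4.4 were used, with no role or order given. Groups came from the labels, and the members and lists were chosen with earlier results of these data known.

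Experiments were fitted separately by limma 3.58.1 under R 4.3.3 (lmFit, eBayes with trend, two-sided) on log2(value + 1), so fold changes on that scale understate low genes. The filter was 1 FPKM or a signal of 50 in at least the number of libraries of the smaller group, with Benjamini-Hochberg adjustment over all genes tested (threshold 0.05). The procedure was tested on simulated data. Fold differences without log2 are ratios of group means. Levels per exon length in signal tables used GENCODE vM21 union exon lengths.

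Whole reads were recovered from FPKM, exon length and depth (97.3 to 98.1% of low values whole within 0.05 of a read) and from the Prdm1 and Tcf7 signal (100% within 0.01). edgeR 4.0.16 on them called 2067 genes higher and 2225 lower in the RFP, 4 and 21 in the Bcl6, 523 and 260 in the Prdm1, and 217 and 183 in the Tcf7 experiment. Named genes are all 9 ligands, called members of each list (at most 4 by smallest p), receptors, neighbours of the Tnf cluster and the 2 most alike genes of each ligand. Alternatives were the pseudocount (0.1 FPKM, 10 in signal), no filter, rescaled totals, quantile normalization, a replicate block, leaving out each library, and edgeR.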

Additional observations from a re-analysis of the deposited data

How the results depend on the processing

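Over the ligands and alternatives run, 296 of 330 values kept their direction and side of the threshold, 17 gained a call, 11 lost one and 6 changed sign. In these counts a ligand not tested in the main fit stands as not called. Lta, Tnf and Tnfsf11 in the RFP experiment, untested there, gave 2 each of the 17. Against 5 ligands called in the RFP experiment, 8 were called with no filter, which tests 9 ligands instead of 6, and 8 with edgeR. Against 1 called in the Bcl6 experiment, 0 were called with no filter, 0 with quantile normalization and 0 with edgeR, and 0 to 4 with a library left out; the cause was not tested. Leaving out a library kept 5 in the RFP experiment, and gave 5 to 7 in the Prdm1 experiment (6 called) and 2 to 3 in the Tcf7 experiment (3 called). A lone library left in a group is assumed to vary like the others. Signs changed only for ligands not called: in the Bcl6 experiment the log2 fold change of Tnfsf10 was -0.00 with library totals rescaled. With a library left out it ran from -0.11 to 0.18 for Tnfsf10, from -0.12 to 0.04 for Tnfsf8 and from -0.13 to 0.44 for Cd40lg, and from -0.52 to 0.02 for Cd40lg in the Tcf7 experiment.

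The deviations of same-numbered libraries had r = -0.231, 0 and -0.331 in the RFP, -0.459 in the Bcl6, 0.528 in the Prdm1 and 0.064 in the Tcf7 experiment. The main fits take the numbers as names in every experiment. In the Prdm1 experiment same-numbered libraries may be pairs, which was not tested. With 2 libraries a group, crossed numbers must give the same r with opposite sign (-0.528 there), which adds nothing. With the replicate number as a block, 5, 2, 7 and 3 ligands were called in the RFP, Bcl6, Prdm1 and Tcf7 experiments, adding Tnf in the Bcl6 (adjusted p = 0.0070) and Tnfsf8 in the Prdm1 experiment (8.5e-04). Over all genes the block called 14 higher and 64 lower in the Bcl6 experiment (3 and 37 without), 1210 and 1176 in the Prdm1 (471 and 279) and 495 and 482 in the Tcf7 experiment (226 and 187). With the Bcl6 numbers crossed, chosen after seeing the data, 4 ligands and 180 higher and 272 lower genes were called. With single libraries left out, all-gene counts (higher and lower) moved by over 1.5 times, in total or in 1 direction, without Bcl6 littermate replicate 2 (13 and 42), Bcl6 knockout replicate 1 (720 and 850) or 2 (68 and 130), Prdm1 littermate replicate 2 (700 and 483), and Tcf7 littermate replicate 1 (375 and 360) or 2 (407 and 341) and knockout replicate 1 (109 and 109) or 2 (108 and 126). The Bcl6 counts were 3 and 24 with no filter and 4 and 21 with edgeR, and the RFP counts, 1591 and 2098, were 3300 and 1171 with library totals rescaled. In the Tcf7 experiment edgeR called the same number of ligands as limma, 1 higher and 2 lower, and 217 and 183 genes in all. Read numbers limit Lta, Tnf and Tnfsf11 most, with at most 13 reads each in RFP-CD160- libraries.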
